A study of Homo sapiens with 12 samples.

Results

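Transcripts of 10 keratin genes were measured by RNA-seq in MIB1-iKO cells, a derivative of the human lung cancer cell line NCIH838 in which doxycycline (Dox) switches on Cas9 so that MIB1, the gene of an E3 ubiquitin ligase, is cut. The genes were KRT7, KRT8, KRT18, KRT19, KRT15, KRT16, KRT17, KRT6A, KRT80 and KRT81, that is, keratins of simple epithelium, of basal and stressed stratified epithelium and of hair. They were taken by symbol from the 58302 gene identifiers of the count table, and each symbol matched 1 identifier. The set was selected on the level of KRT17 in MIB1 KO cells, whose fall against WT was already known, so KO against WT is described below without a test. The BMP comparisons of KRT17 use the same libraries, so its p values there are not independent of that choice.

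Keratins are the intermediate filament proteins of epithelial cells. A filament is built from pairs of 1 type I (acidic) and 1 type II (basic) keratin, and an unpaired keratin is degraded, so cells tend to make partners together. KRT8 (type II) with KRT18 (type I) is the pair of simple epithelium, and KRT7 (type II) and KRT19 (type I) accompany it in many glandular epithelia and in lung adenocarcinoma. KRT15 (type I) belongs to basal cells. KRT6A (type II), KRT16 and KRT17 (both type I) are induced in wounded or inflamed epidermis, and KRT17 is also made by many carcinomas. KRT80 is a type II keratin of desmosome borders in many epithelia, and KRT81 is a type II hair keratin.

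All 12 libraries came from cells kept for 3 days with LDN, a blocker of BMP type I receptors, at 50 nmol/L, and then for 24 hours in 10 ng/mL BMP4, so that every group received the ligand. In the 2 BMP-off groups LDN stayed in the medium during those 24 hours, and in the 2 BMP-on groups it was replaced by the solvent DMSO. MIB1 KO cells had 0.5 μg/mL Dox in the first phase and MIB1 WT cells had none, with 3 replicates in each of the groups WT BMP-off, WT BMP-on, KO BMP-off and KO BMP-on. Effects of Dox or of Cas9 itself cannot be told apart from those of MIB1 loss, and the iKO cells were isolated as single-cell clones. Nothing says whether the replicates were separate cultures, so p values cover the spread between these libraries, which may be technical.

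Libraries held 19124010 to 29498000 counts, and levels below are CPM (counts scaled to the library total) unless stated otherwise. MIB1, the targeted gene, lay between 144 and 176 CPM in the WT libraries and between 31.0 and 34.4 CPM in the KO libraries. In bulk RNA, fewer cells with a transcript and less of it per cell cannot be told apart. Of the epithelial markers, MUC1 averaged 10.1 RPKM (reads scaled to gene length and library total), EPCAM 3.78 RPKM and CDH1 1.61 RPKM. The others were lower, with CLDN4 at 0.393, ELF3 at 0.137 and ESRP1 at 0.00903 RPKM. VIM, the intermediate filament protein of mesenchymal cells, averaged 413 RPKM. The lung lineage markers NKX2-1, NAPSA, SFTPB and SFTPC together reached at most 1.07 CPM in any library, so the defining markers of the lung lineage were at or near 0. Markers of blood cells summed to at most 0.323 CPM and those of endothelium to at most 1.81 CPM.

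To place the keratins relative to each other, levels per length were compared as RPKM. Averaged over all libraries, KRT18 was the highest at 79.3 RPKM, followed by KRT7 at 46.3 RPKM, KRT8 at 32.9 RPKM, KRT17 at 16.8 RPKM and KRT80 at 14.7 RPKM. The other 5 members averaged below 1 RPKM, with KRT81 at 0.384, KRT16 at 0.118, KRT6A at 0.0963, KRT15 at 0.0828 and KRT19 at 0.0296 RPKM. KRT18 and KRT17 were thus the type I members above 1 RPKM and KRT7, KRT8 and KRT80 the type II members, and KRT19, a usual partner in glandular epithelium, was close to the detection limit. KRT10, a type I keratin of differentiating epidermis, averaged 27.3 RPKM, between KRT8 and KRT17. It was the only keratin outside the set to average 50 counts or more per library. The lengths behind these RPKM values are those of the authors' gene models and are not given, so the order depends on them. KRT8 averaged 3628 counts per library and KRT7 1958, with longest transcripts of 2862 and 1625 bases, so the place of KRT7 above KRT8 is not settled.

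**Figure D1:**
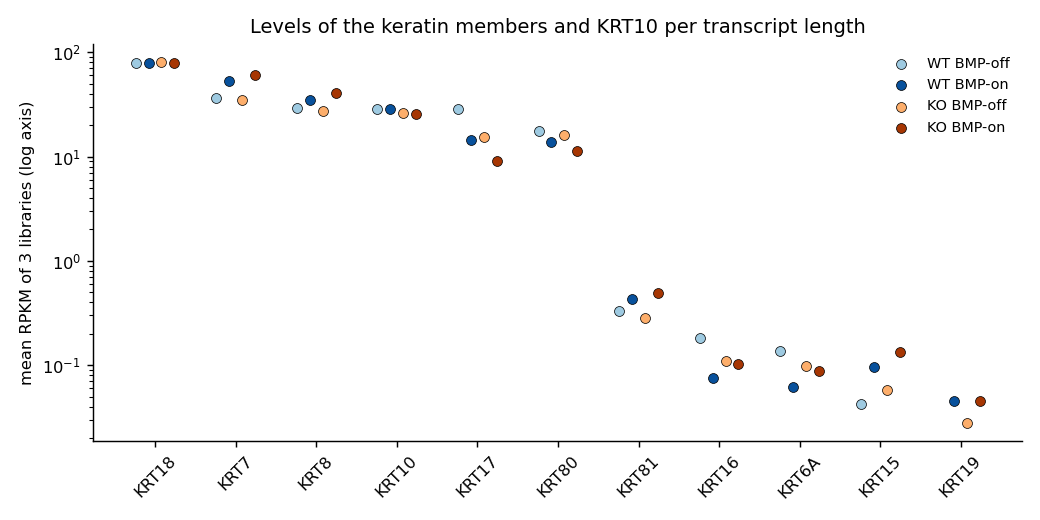
Mean RPKM of 3 libraries (log axis) for the 10 keratins and KRT10 in each of the 4 groups, ordered by the mean over all libraries. KRT18 to KRT80 lie between 9.10 and 80.4 RPKM and KRT81 to KRT19 below 0.5 RPKM. KRT19 in WT BMP-off is at 0 and is not drawn.

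On the RPKM scale, the order of KRT17 and its neighbours depended on the group. In WT BMP-off, KRT17 stood at 28.5 ± 4.79 RPKM (SD, n = 3), within its spread of KRT8 at 28.9 ± 0.538 RPKM and above KRT80 at 17.5 ± 0.728 RPKM. In WT BMP-on, KRT17 at 14.3 ± 0.395 RPKM and KRT80 at 13.7 ± 0.536 RPKM differed by less than their summed SDs. In KO BMP-on, KRT17 at 9.10 ± 0.284 RPKM was the lower of the 2, with KRT80 at 11.3 ± 0.615 RPKM. On that scale KRT7 stood above KRT8 by more than their summed SDs in WT BMP-off, at 36.7 ± 1.69 RPKM. In KO BMP-off, KRT7 at 34.6 ± 3.67 RPKM and KRT8 at 27.4 ± 4.91 RPKM were closer than that. Among the 4 lowest members the order rests on 12 to 126 counts over all libraries together and was not resolved at this depth.

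The members lie in the 2 keratin gene clusters (GRCh38, GENCODE v44). The type II genes and KRT18 are on chromosome 12, with KRT80 at chr12:52168996-52192014, KRT7 at chr12:52232520-52252186, KRT81 at chr12:52285913-52291534, KRT6A at chr12:52487176-52493257, KRT8 at chr12:52897187-52949954 and KRT18 at chr12:52948871-52952906. The other type I genes are on chromosome 17, with KRT15 at chr17:41513745-41522529, KRT19 at chr17:41523617-41528308, KRT16 at chr17:41609778-41615899 and KRT17 at chr17:41619442-41624842. KRT18, on the plus strand, overlaps KRT8, on the minus strand, and KRT81 lies inside KRT86 on the opposite strand. KRT7 overlaps KRT86, the pseudogene KRT87P and the antisense RNA KRT7-AS. The labels name a stranded and an unstranded library kit without saying which was used, so reads of overlapping genes on opposite strands may have been counted for either.

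Reads of 50 bases do not always tell these genes apart. Of the 50-base windows along the longest transcript, another gene held an exact copy for 33.4% in KRT18 (326 of the windows in the overlapping KRT8 alone), 22.1% in KRT8, 26.2% in KRT17, 11.7% in KRT7, 44.6% in KRT81 (721 windows in KRT86), 39.2% in KRT6A and 21.8% in KRT16. The shares were 1.79% in KRT19, 0.416% in KRT80 and 0% in KRT15. In the count table, the 51 KRT8 pseudogenes held 23.1% as many counts as KRT8, the 67 KRT18 pseudogenes 8.05% as many as KRT18, and the 8 KRT17 pseudogenes 0.462% as many as KRT17. KRT8, KRT18, KRT17, KRT81, KRT6A and KRT16 are therefore uncertain where the counting could split them. Their values with the copies added are given where these change a call. For KRT17 the copies added were its pseudogenes. An annotated gene without a symbol, which shares 258 of its windows, was not added, so its part in the KRT17 counts was not tested.

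Of the 10 members, the RefSeq promoter table (GRCh38.p14) held KRT8 alone, whose sequence is shown because KRT8 and its partner KRT18 parted in the BMP response below. The 250 bases before the listed start lie on the minus strand at chr12:52926470-52926719, inside the GENCODE model of KRT8, and the counts do not show which start was used. The motif search below therefore describes this listed window and not a promoter shown to be used in these cells.
KRT8 promoter: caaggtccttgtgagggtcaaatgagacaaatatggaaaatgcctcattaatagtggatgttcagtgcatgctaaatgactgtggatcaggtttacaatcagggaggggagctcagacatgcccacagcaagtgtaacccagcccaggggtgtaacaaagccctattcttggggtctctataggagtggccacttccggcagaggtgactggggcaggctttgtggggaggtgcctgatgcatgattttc
No letters are capitalized because none of the 4 motifs searched on both strands was in this window. These were TATAAA (the core promoter box bound by TBP), held by 11.5% of the 35116 promoter windows listed, TGANTCA (AP-1), held by 7.71%, GGCGCC (a GC-rich SMAD element), held by 19.2%, and GTCTAGAC (the SMAD palindrome), held by 0.202%. The search and these shares are for whole listed windows, of which the stretch shown is the first 250 bases.

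Each member was tested by edgeR's quasi-likelihood test on the counts, with p values adjusted by the Benjamini-Hochberg method over all 17188 genes that passed a filter on low counts, and a gene passed the test at an adjusted p of at most 0.05. KRT7, KRT8, KRT18, KRT15, KRT17, KRT80 and KRT81 passed the filter, and KRT19, KRT16 and KRT6A did not. KRT15 passed it only through its BMP-on libraries, all of which and no other exceeded the filter's minimum of 0.401 CPM. Its entry into the test thus rested on the groups where it was high. It is left out of the counts and medians of the BMP responses and their interaction below unless stated. Its values are given as a description. The first question was which keratins respond to BMP signaling.

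In MIB1 WT cells, release from LDN was followed by higher KRT7 and by lower KRT17 and KRT80. Among all genes tested, 3.92% passed the test in this comparison, 1.91% with a higher and 2.01% with a lower level in BMP-on. Of the 6 other members tested, 1 rose (KRT7) and 2 fell (KRT17 and KRT80). Their median log2 fold change was 0.14 and their median absolute log2 fold change 0.38, beside 0.0016 and 0.10 over all genes tested.

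In MIB1 KO cells the same 3 keratins passed the test in the same directions, and KRT8 rose as well. The share of all genes that passed was 22.0% here, 11.1% higher and 10.9% lower in BMP-on. Of the same 6 members, 2 rose (KRT7 and KRT8) and 2 fell (KRT17 and KRT80). Their median log2 fold change was 0.30 and their median absolute log2 fold change 0.67, beside 0.0056 and 0.17 over all genes tested. The longer list of calls in KO cells thus came with a higher share of calls among all genes.

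The difference between the 2 responses was tested as the interaction of MIB1 knockout and BMP. None of the 6 members passed the edgeR test, and 1 (KRT7) had an unadjusted p below 0.05. Over all genes, 0.0931% passed. The KO response of KRT8 past the threshold and its WT response short of it were therefore not shown to differ.

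**Figure D2:**
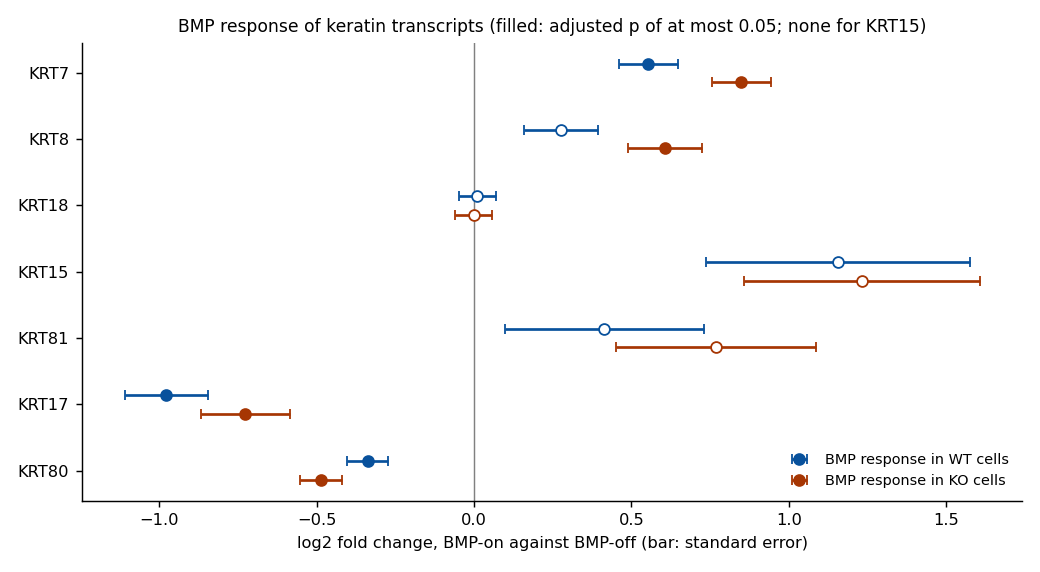
Log2 fold change of BMP-on against BMP-off (horizontal axis, bars are standard errors) for the 7 keratins past the filter, in MIB1 WT (blue) and MIB1 KO cells (brown), with filled points at an adjusted p of at most 0.05. KRT15 is drawn open because no call is made for it. KRT7 lies to the right and KRT17 and KRT80 to the left of 0 in both, and KRT18 lies at 0 in both.

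Among the simple epithelial keratins, KRT7 rose after LDN was removed in both backgrounds. In MIB1 WT cells it stood at 58.2, 61.3 and 64.9 CPM with BMP-off and at 85.9, 88.0 and 96.9 CPM with BMP-on. In MIB1 KO cells it stood at 49.3, 61.5 and 61.6 CPM with BMP-off and at 91.1, 109.9 and 110.0 CPM with BMP-on. Each BMP-on library was above each BMP-off library. Its log2 fold change was 0.55 ± 0.093 in WT (SE, adjusted p = 0.0033 by edgeR), a 1.47-fold rise, and 0.85 ± 0.093 in KO (adjusted p = 2.3e-05), a 1.80-fold rise, and the interaction was 0.29 ± 0.13 (adjusted p = 0.45). KRT7-AS, which shares 177 of KRT7's 50-base windows and overlaps it on the other strand, averaged 1.77 CPM in WT BMP-off, 2.54 in WT BMP-on, 1.93 in KO BMP-off and 2.82 CPM in KO BMP-on, and its part in the KRT7 counts was not tested.

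The size of the KRT7 response also depended on how base composition was handled. The GC content of the members' longest transcripts ranged from 55.6% to 62.3%, with 62.0% in KRT7, while the median of the genes tested was 47.8% (quartiles 41.9% and 55.6%). Libraries of the same group differed in how counts depended on GC content. Rank correlations between GC content and a gene's deviation from its group mean ranged from -0.60 in KO BMP-off replicate 2 to 0.59 in KO BMP-off replicate 3. With a GC trend per library removed, the KO response of KRT7 was 0.52 (adjusted p = 0.00022 by edgeR), its WT response 0.45 (adjusted p = 0.0020) and the interaction 0.069 (adjusted p = 0.84). The trend removed was that of each library's deviation from the mean of all 12 libraries. A GC-linked difference between BMP-on and BMP-off was therefore removed with it. KRT7 was higher in BMP-on with and without the correction, and its KO response was 1.64 times as large on the log2 scale without it.

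KRT8 rose in MIB1 KO cells. Its KO levels were 92.7, 126.8 and 137.6 CPM with BMP-off and 163.4, 188.7 and 192.0 CPM with BMP-on, a log2 fold change of 0.61 ± 0.12 (adjusted p = 0.0041 by edgeR) or 1.52-fold. In WT cells it stood at 122.9, 126.6 and 129.8 CPM with BMP-off and at 148.1, 150.4 and 160.8 CPM with BMP-on. The WT groups did not overlap either, but with a log2 fold change of 0.28 ± 0.12 KRT8 missed the threshold there (adjusted p = 0.29). The lowest KRT8 level was that of KO BMP-off replicate 2, the library with the most negative GC correlation, and without it the WT response passed the test (log2 fold change 0.28, adjusted p = 0.0035) and the KO response was 0.45 (adjusted p = 2.0e-05). The interaction was 0.33 ± 0.17 (adjusted p = 0.50).

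KRT18, the type I partner of KRT8, stayed near 1 level in all 4 groups. The WT levels were 146.2, 148.8 and 162.3 CPM with BMP-off and 149.3, 152.7 and 158.9 CPM with BMP-on, and the KO levels were 151.8, 153.4 and 153.9 CPM with BMP-off and 138.8, 154.9 and 165.5 CPM with BMP-on. All groups overlapped. The log2 fold change was 0.010 ± 0.059 in WT (adjusted p = 0.95 by edgeR), with 2 standard errors reaching from -0.11 to 0.13, and -0.0005 ± 0.059 in KO (adjusted p = 0.997), with 2 standard errors reaching from -0.12 to 0.12. A BMP response of KRT18 as large as that of KRT7 in either background lies outside those bounds. With a GC trend per library removed, the log2 fold change of KRT18 was -0.029 in WT (adjusted p = 0.88 by edgeR) and -0.14 in KO (adjusted p = 0.22).

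**Figure D3:**
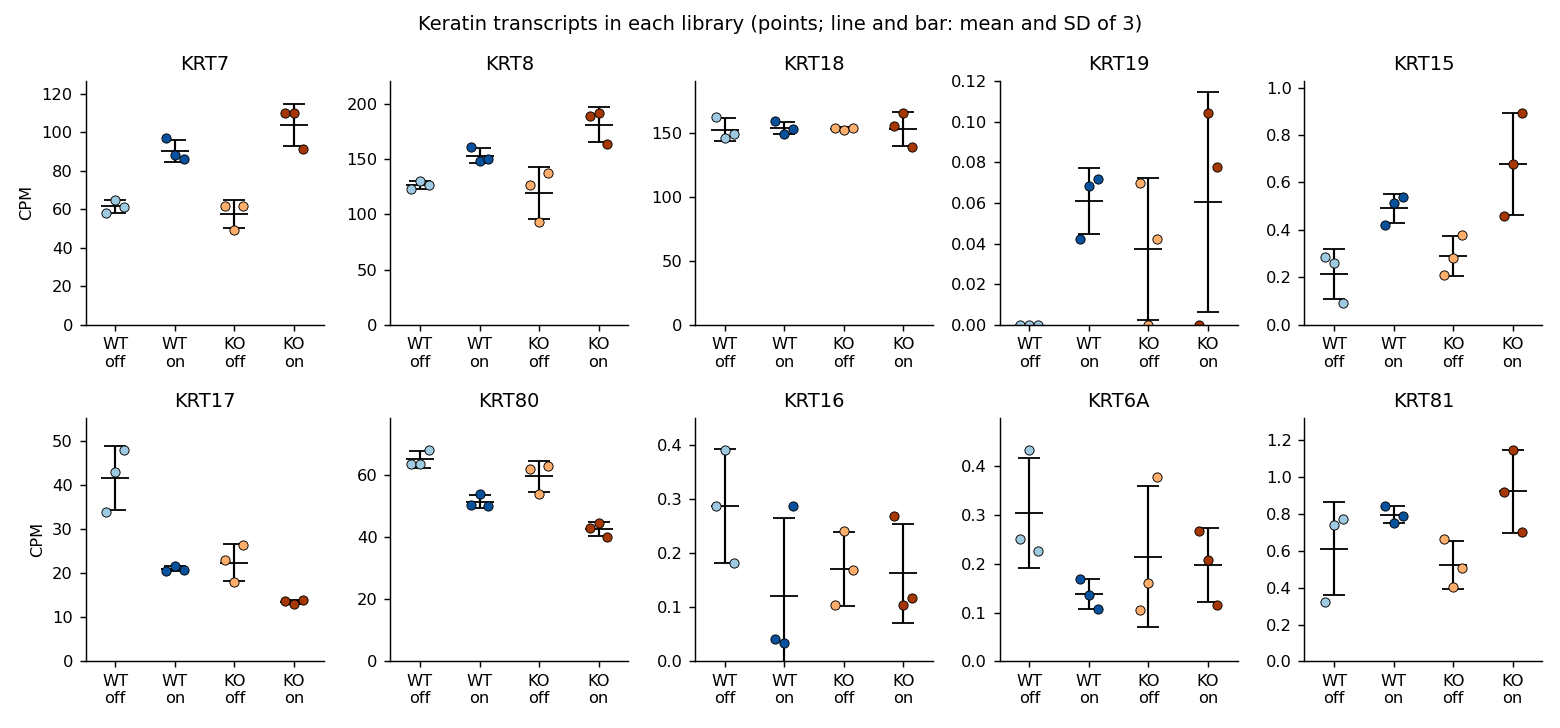
CPM of each of the 10 keratins in each library (points), with the mean and SD of 3 replicates (line and bar), by group. All axes start at 0. KRT7 is higher and KRT17 and KRT80 are lower in each BMP-on library than in each BMP-off library of the same genotype, KRT18 overlaps in all 4 groups, and KRT19, KRT16 and KRT6A lie below 0.5 CPM.

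KRT19, the other type I keratin of simple epithelium, had 12 counts in all libraries together. It had 0 counts in all 3 WT BMP-off libraries, 1 to 2 in WT BMP-on, 0 to 2 in KO BMP-off and 0 to 2 in KO BMP-on. A floor of 3 counts per library corresponds to 0.102 to 0.157 CPM, and no library exceeded it, so no fold change is given for KRT19.

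Because KRT18 pairs with KRT8 and was measured in the same libraries, the counts of the other members were also set against those of KRT18 within each library, a comparison chosen after the data were seen that needs no scaling between libraries. The log2 ratio of KRT8 to KRT18 averaged -0.27 in WT BMP-off (-0.40 to -0.17), -0.0053 in WT BMP-on (-0.022 to 0.018), -0.38 in KO BMP-off (-0.71 to -0.16) and 0.24 in KO BMP-on (0.21 to 0.28). The ranges with BMP-on and BMP-off did not overlap within either genotype. On average over the genotypes the ratio was 0.45 higher with BMP-on, and 0.41 higher with the pseudogenes of both added. These ratios are a description without a test, since their members were picked for the BMP responses above.

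The ratios of KRT7, KRT17 and KRT80 to KRT18 separated BMP-on from BMP-off in the same way. Relative to KRT18, the log2 ratio was 0.70 higher with BMP-on for KRT7, 0.84 lower for KRT17 and 0.41 lower for KRT80. KRT8 and KRT18 have a similar GC content of 56.2% and 55.7%, and KRT80 has 56.8%, while KRT7 and KRT17 have 62.0% and 58.1%.

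**Figure D4:**
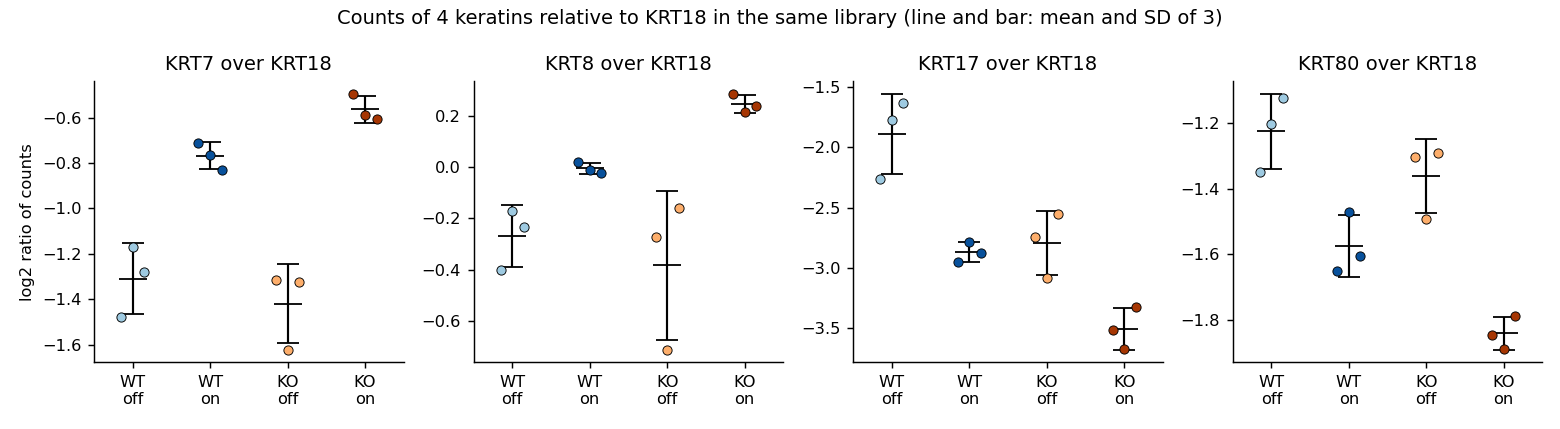
Log2 ratio of the counts of KRT7, KRT8, KRT17 and KRT80 to those of KRT18 in the same library (points), with the mean and SD of 3 replicates, by group. Within each genotype the BMP-on libraries lie above the BMP-off libraries for KRT7 and KRT8 and below them for KRT17 and KRT80. The vertical axes do not start at 0.

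Among the keratins of basal and stressed epithelium, KRT17 fell with BMP-on. In MIB1 WT cells it stood at 33.7, 42.8 and 48.0 CPM with BMP-off and at 20.5, 20.8 and 21.7 CPM with BMP-on. This was a log2 fold change of -0.98 ± 0.13 (adjusted p = 0.00089 by edgeR), a 1.97-fold fall. In MIB1 KO cells it stood at 18.0, 22.9 and 26.2 CPM with BMP-off and at 13.0, 13.6 and 13.9 CPM with BMP-on. There its log2 fold change was -0.73 ± 0.14 (adjusted p = 0.0028), a 1.66-fold fall. The groups did not overlap in either background, and the interaction of 0.25 ± 0.19 did not pass (adjusted p = 0.64). Its size was 0.11 without KO BMP-off replicate 2, 0.13 without WT BMP-off replicate 3 and 0.10 with the GC trend removed.

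KRT17 also carried the difference by which the set was chosen. With BMP-off, the KO libraries (18.0 to 26.2 CPM) were all below the WT libraries (33.7 to 48.0 CPM), a log2 fold change of -0.89 ± 0.13. With BMP-on, the KO libraries (13.0 to 13.9 CPM) were all below the WT libraries (20.5 to 21.7 CPM), with a log2 fold change of -0.64 ± 0.14. The WT BMP-on and KO BMP-off libraries overlapped in KRT17, and all 3 KO BMP-on libraries were below both groups. These values are those that the choice rested on and are given as a description. The BMP tests of KRT17 above used the same libraries, and its interaction is the difference between the BMP-on and BMP-off values given here. Their p values are therefore not independent of the choice.

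The other members were closer between KO and WT. With BMP-on, log2 fold changes of KO against WT were 0.20 ± 0.091 for KRT7, 0.24 ± 0.12 for KRT8, -0.0059 ± 0.059 for KRT18, 0.45 ± 0.33 for KRT15, -0.28 ± 0.066 for KRT80 and 0.19 ± 0.29 for KRT81. With BMP-off they were -0.096 ± 0.094 for KRT7, -0.087 ± 0.12 for KRT8, 0.0050 ± 0.059 for KRT18, 0.37 ± 0.47 for KRT15, -0.13 ± 0.065 for KRT80 and -0.17 ± 0.34 for KRT81. The median over the 7 members, KRT15 and KRT17 included, was 0.19 with BMP-on and -0.096 with BMP-off. Over all genes tested it was 0.0025 and -0.0086. Both medians rest on single libraries, since the first was 0.027 without KO BMP-on replicate 2 and the second 0.0036 without KO BMP-off replicate 2.

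KRT15, the basal cell keratin, was measured by few counts. It had 2 to 8 counts per library in WT BMP-off, 10 to 15 in WT BMP-on, 6 to 9 in KO BMP-off and 12 to 23 in KO BMP-on, or 0.213 ± 0.107, 0.491 ± 0.061, 0.290 ± 0.085 and 0.677 ± 0.217 CPM (SD, n = 3). The groups did not overlap within either genotype, which restates how KRT15 passed the filter. The fitted log2 fold change was 1.16 ± 0.42 in WT and 1.23 ± 0.37 in KO (SE), and no call is made from either because of the filter described above.

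KRT16 and KRT6A, the partners induced by stress, were close to the detection limit. KRT16 had 4 to 9 counts per library in WT BMP-off, 1 to 8 in WT BMP-on, 3 to 6 in KO BMP-off and 2 to 7 in KO BMP-on. KRT6A had 5 to 10, 3 to 4, 3 to 9 and 3 to 7 counts in these groups. KRT17 was thus present without comparable levels of the other 2 stress keratins, and no difference in KRT16 or KRT6A was detectable at this depth.

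KRT80 fell with BMP-on in both backgrounds. In WT cells it stood at 63.5, 63.7 and 68.3 CPM with BMP-off and at 50.2, 50.5 and 53.9 CPM with BMP-on, and in KO cells at 54.0, 62.1 and 62.9 CPM with BMP-off and at 40.2, 43.1 and 44.7 CPM with BMP-on. Each BMP-on library was below each BMP-off library of the same genotype. The log2 fold change was -0.34 ± 0.065 in WT (adjusted p = 0.0056 by edgeR), a 1.26-fold fall, and -0.49 ± 0.066 in KO (adjusted p = 6.4e-05), a 1.40-fold fall. The interaction was -0.15 ± 0.092 (adjusted p = 0.56), and with the GC trend removed it was -0.27 and just passed (adjusted p = 0.049), under a setting in which 1.37% of all genes did. With a replicate block added to that setting it no longer passed (-0.27, adjusted p = 0.070, 1.13% of all genes).

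KRT81, the hair keratin, was low in all groups. It had 9 to 17 counts per library in WT BMP-off, 20 to 22 in WT BMP-on, 10 to 19 in KO BMP-off and 18 to 24 in KO BMP-on. The log2 fold change was 0.41 ± 0.32 in WT (adjusted p = 0.59 by edgeR) and 0.77 ± 0.32 in KO (adjusted p = 0.093). The WT value was 0.075 without WT BMP-off replicate 1, and with the GC trend removed the KO value was 0.43 (adjusted p = 0.34), KRT81 having the highest GC content of the members at 62.3%. Its close relatives KRT83 and KRT86 held 170% as many counts, and KRT86, the hair keratin gene around it, rose in KO cells (log2 fold change 0.60 ± 0.21, adjusted p = 0.049). With the 3 genes summed, the KO response was 0.67 (adjusted p = 0.017) and the WT response 0.17 (adjusted p = 0.73).

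The sum over all 55 keratin genes was 510 ± 8.94 CPM in WT BMP-off, 534 ± 15.1 in WT BMP-on, 469 ± 40.4 in KO BMP-off and 552 ± 42.4 CPM in KO BMP-on (SD, n = 3). KRT8 and KRT18 together made up 53.5% to 61.3% of it in each library and the 10 members 86.8% to 90.4%. The 45 other keratin genes included 17 without any count, and 4 of them (KRT9, KRT10, KRT34 and KRT86) passed the filter. Of those 4, none passed the edgeR test in WT, where 3.92% of all genes did. In KO 1 (KRT86, higher) passed it, near the 22.0% of all genes. KRT10 had log2 fold changes of 0.026 ± 0.060 in WT (adjusted p = 0.88) and -0.0019 ± 0.061 in KO (adjusted p = 0.99).

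Proteins that anchor keratin filaments at desmosomes and hemidesmosomes were looked up for comparison. Of 19 such genes 14 were tested, of which 1 rose in WT and 1 rose and 3 fell in KO. Against 3.92% of all genes in WT and 22.0% in KO, the KO count of 4 of 14 is near the share of all genes. PERP, a membrane protein of desmosomes, rose in WT (log2 fold change 0.32, adjusted p = 0.00022) and in KO (0.43). In KO the desmosomal cadherin DSG2 (-0.25, adjusted p = 0.00068), the plakophilin family member PKP4 (-0.19, adjusted p = 0.0048) and the integrin subunit ITGA6 (-0.18, adjusted p = 0.016) fell. The median over the 14 was -0.0096 in WT and -0.12 in KO.

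Of 16 other intermediate filament genes 12 were tested, of which 1 rose and 1 fell in WT, where 3.92% of all genes passed, and 3 rose and 1 fell in KO, where 22.0% did. The nuclear lamin LMNB1 fell by 0.18 on the log2 scale in WT (adjusted p = 0.034) and fell by 0.53 in KO. SYNM rose by 0.27 in WT (adjusted p = 0.032) and by 0.21 in KO (adjusted p = 0.036), and BFSP1 (0.64, adjusted p = 0.0084) and VIM (0.16, adjusted p = 0.015) rose in KO. The median over the 12 was 0.052 in WT and 0.11 in KO.

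Of 20 non-keratin genes of basal and cornifying stratified epithelium 6 were tested, of which 1 passed in WT (3.92% of all genes) and 2 in KO (22.0%). SERPINB5, a serpin made by many epithelia, rose in WT (0.41, adjusted p = 0.0066) and in KO (0.66, adjusted p = 2.3e-05). TGM1, the transglutaminase of cornified envelopes, fell in KO (-0.56, adjusted p = 0.020). The others did not pass, among them SFN (-0.18 in WT, -0.10 in KO) and S100A2 (0.19 in WT, 0.12 in KO), and 9 of the 20 had no count in any library.

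Summed levels of fibroblast and epithelial markers moved along with BMP-on. The 5 fibroblast markers (COL1A1, COL1A2, DCN, LUM and PDGFRB) summed to 15.6 to 22.1 CPM in WT BMP-off and 30.5 to 32.0 in WT BMP-on, and to 12.6 to 21.1 in KO BMP-off and 35.7 to 43.5 CPM in KO BMP-on, most of it COL1A1. None of the 5 was at 0 throughout, but COL1A2 averaged 2.0 and DCN 1.08 counts per library, and neither was tested. Of the 3 tested, none passed in WT, where 3.92% of all genes did, and 2 rose in KO, where 22.0% of all genes passed. These were COL1A1 (log2 fold change 1.39, adjusted p = 0.00060) and PDGFRB (0.92, adjusted p = 0.014). LUM passed in neither (-0.11 in WT, 0.081 in KO). The 6 epithelial markers summed to 65.4 to 72.3 CPM in WT BMP-off, 51.3 to 58.9 in WT BMP-on, 57.6 to 65.5 in KO BMP-off and 49.8 to 55.9 CPM in KO BMP-on. Of the 5 tested, beside the same shares of all genes, EPCAM, ELF3 and MUC1 fell in both backgrounds. CLDN4 rose in KO (1.55, adjusted p = 7.2e-05), while KRT7 rose in both and KRT8 in KO. Of the lung lineage markers 1 was tested and did not pass, and no blood marker was tested. Of the 3 endothelial markers none passed in WT (3.92% of all genes) and 1 (CDH5) was lower in KO (22.0% of all genes). The part of these markers in the keratin values was not tested.

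Of 12836 genes that averaged 50 counts or more, those whose log2 CPM followed KRT17 most closely over the 12 libraries were SCARA3 (Pearson r = 0.978), EFNA1 (0.977), ASS1 (0.966), TOGARAM2 (0.963) and CRYBG2 (0.960). The libraries share their 4 groups, so these correlations are descriptions. Like KRT17, these genes were highest in WT BMP-off and lowest in KO BMP-on, and CRYBG2 went from 27.5 CPM in WT BMP-off to 12.6 in WT BMP-on, 18.1 in KO BMP-off and 7.50 CPM in KO BMP-on. No other keratin was among them.

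**Figure D5:**
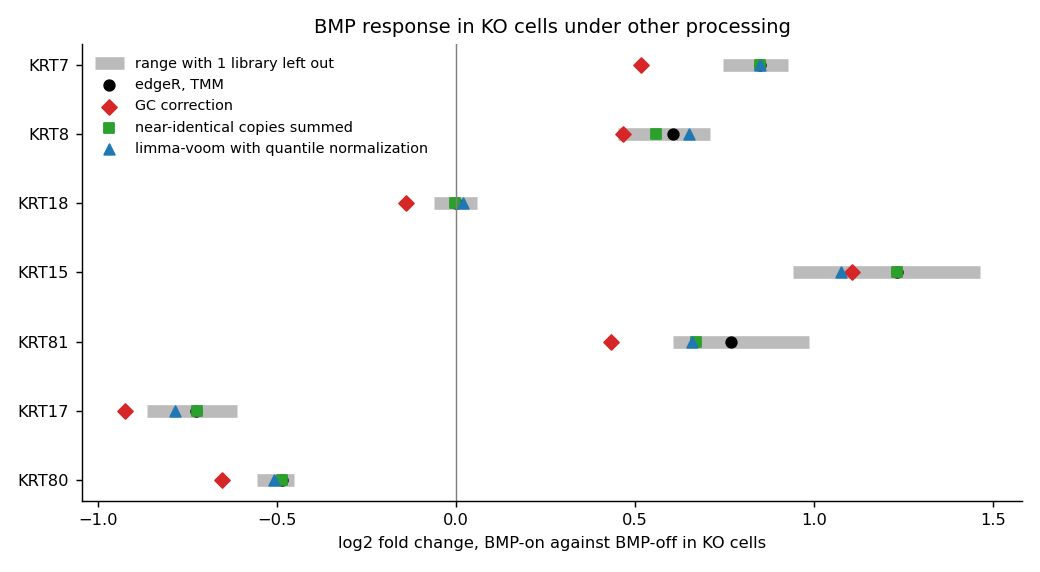
Log2 fold change of BMP-on against BMP-off in MIB1 KO cells (horizontal axis) for the 7 keratins tested, from edgeR with TMM scaling (black), after removal of the GC trend (red), with near-identical copies summed (green), and from limma-voom with quantile normalization (blue), with the range when 1 library is left out (grey). KRT7 and KRT8 stay above 0 and KRT17 and KRT80 below 0 in all of them, while the GC correction takes KRT7 from 0.85 to 0.52.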

How the data were processed

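RNA from 12 libraries of MIB1-iKO cells (NCIH838) was sequenced as single-end reads of 50 bases, 3 replicates in each of 4 groups that were assigned from the sample labels. Ribosomal reads were removed by the authors, the rest were aligned to GRCh38 with GSNAP, and reads on exons of RefSeq genes were counted with HTSeqGenie. The deposited table of counts holds whole numbers without normalization, and 0 sample columns were left out. The deposited RPKM values were normalized between libraries by the authors and served for levels per length and for alternatives. Symbols, positions and transcripts came from GENCODE v44 (57532 identifiers matched, 770 did not).

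Counts were scaled by TMM and modelled with edgeR 4.0.16 (R 4.3.3), in 1 robust quasi-likelihood model of the 12 libraries, after its default filter on low counts (17188 genes). P values were adjusted by the Benjamini-Hochberg method within each comparison. The 5 comparisons were BMP-on against BMP-off within WT and within KO cells, their interaction, and KO against WT within BMP-on and within BMP-off, the last 2 as descriptions, for which no p value or call is given. The KO response and the interaction were tested on simulated data with changed genes, the WT response only on unchanged genes. Floors cover counting error only. Replicates of a group differed by 3.08 to 18.0 times the variance of counting alone.

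As alternatives, DESeq2 1.42.0, limma-voom (limma 3.58.1, after quantile normalization), library size and upper quartile scaling, other filters, models restricted to the groups compared, a replicate term, a GC correction (loess per library, span 0.4), log2(RPKM + 1) and log2(RPKM + 0.1), near-identical copies summed, each library left out, and a minimum absolute log2 fold change of 1 were used. Of the 18 pairs of libraries with the same replicate number, 2 had a correlation of residuals above 0.1, so the numbers were not taken to pair libraries.

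The members, the gene lists (other keratins, keratin linkers, other intermediate filaments, stratified epithelium, cell type markers) and the rule for named genes were chosen with earlier results of these data known. That rule named all members, other keratins with a mean of at least 50 counts, up to 4 genes per list with the largest changes past the test in KO cells, and the 5 genes most correlated with KRT17. SFN, S100A2 and the markers were named after their values were seen.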

Additional observations from a re-analysis of the deposited data

How the results depend on the processing

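Over the 21 tested values (7 keratins in the BMP response of WT cells, of KO cells and in the interaction), 523 values were recomputed, of which 487 kept direction and side of the threshold, 6 (all KRT15 in KO) lost and 4 gained a call, and 26 changed sign. KRT7, KRT17 and KRT80 kept their calls in both BMP responses under every alternative run that used the adjusted p alone, as did KRT8 in KO cells.

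With a minimum absolute log2 fold change of 1 as well, 0 members passed in WT and 1 in KO (KRT15, for which no call is made). With the GC correction, 1 member passed the interaction (KRT80), as did 1.37% of all genes. The median for KO against WT with BMP-on was -0.0043 with at least 10 counts in every library and 0.023 on log2(RPKM + 1), where fewer members had a value, and 0.027 to 0.23 with a library left out (BMP-off -0.15 to 0.0036). With each library left out, 3 to 4 members passed in WT and 4 to 5 in KO, KRT15 included.

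KRT15 in KO, for which no call is made, passed in the fit over all libraries (adjusted p = 0.027) but not in a model of only the groups compared (adjusted p = 0.052), on log2(RPKM + 1) without a filter (0.066) and without 4 of the libraries in turn, and DESeq2 gave it no adjusted p. KRT8 passed in WT in a model of only the groups compared (adjusted p = 0.0023). All changes of sign concern values near 0. KRT18 in WT was -0.029 with the GC correction, -0.026 with replicate block and GC correction, -0.0051 on each RPKM scale, and -0.019 to 0.064 with a library left out. KRT18 in KO was 0.019 by limma-voom, 0.017 scaled by library size, 0.0027 with at least 10 counts and 0.00040 in a model of only the groups compared. It was -0.062 to 0.059 with a library left out. With the GC correction it kept its sign but was further from 0, at -0.14 (adjusted p = 0.22 by edgeR). The KRT18 interaction was 0.011 by limma-voom, 0.0051 scaled by library size and -0.072 to 0.048 with a library left out, and that of KRT15 was -0.0056, -0.0097 with the GC correction and -0.23 to 0.40. The cause was not tested.

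With the replicate block, 3 members passed in WT, 5 in KO (KRT15 included, for which no call is made) and 0 in the interaction, as without it. Over all 17188 genes, 529 passed in WT, 3427 in KO and 3 in the interaction with the block. Added to the GC correction, the block took the interaction from 1 member (KRT80) to 0. The same-number residual correlations ranged from -0.19 to 0.19. Only the groups compared gave no interaction. Depth limits KRT19, KRT16, KRT6A, KRT15 and KRT81.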
